A study of Mus musculus with 4 samples.

Results

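H3K27ac regions that lie in ERVL and MaLR repeats were examined in embryonic stem (ES) cells of B6 and NOD mice. A region was taken when the repeat named at its centre in the deposited annotation was of the class ERVL or ERVL-MaLR. This gave 603 of 11651 H3K27ac regions, of which 280 of 5525 were in the B6 list and 323 of 6126 in the NOD list. The ERVL class proper held 58 B6 and 65 NOD regions, and MaLR held 222 and 258.

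The study compared ES cells from diabetes-prone NOD mice with ES cells from C57BL/6 (B6) mice, a strain that does not develop diabetes. Cells of both strains were derived from embryos and grown in 2i medium, which holds inhibitors of MEK and GSK3. Chromatin was precipitated with antibodies to H3K27ac, an acetylated histone H3 found at active enhancers and promoters, or to H3K4me3, a methylated histone H3 found at active promoters. There were 4 libraries, 1 for each strain and mark, and the labels do not say which ES cell line or how many lines went into each. In making each H3K27ac list the opposite strain served as background, so a list holds regions enriched in its own strain and not all acetylated regions. Without replicates, no spread between cultures can be given and no test between strains was made. All intervals below are 95% intervals that cover counting error only, and regions are not replicates of a strain. The ES cell identity could not be checked from these lists, because a gene marked alike in both strains has no place in them.

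ERVL and MaLR elements are related endogenous retroviral families that amplified in the ancestors of rodents and other mammals. In mouse, the MERVL provirus consists of an internal part flanked by long terminal repeats (LTRs) of the MT2 type, and it is known for its activation at the 2-cell stage of the embryo and in rare 2-cell-like ES cells. MaLR elements lack the genes of a full retrovirus and comprise the ORR1, MT and MLT1 groups, of which MT and ORR1 LTRs are known to serve as promoters in oocytes and early embryos. LTRs carry promoter and enhancer sequences, and repeat names ending in "-int" denote the internal part between them.

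To show what these regions look like, the 300 bp at the centre of the highest-scoring region of at most 2 kb is given for both strains in MT2 and MT and for NOD in ORR1. Sequences are from the + strand of GRCm38 (mm10), 5′ to 3′, and capitals mark a match to 1 of the 6 motifs described further on.

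B6 MT2B2, nearest Xrn1, chr9:95958699-95958998: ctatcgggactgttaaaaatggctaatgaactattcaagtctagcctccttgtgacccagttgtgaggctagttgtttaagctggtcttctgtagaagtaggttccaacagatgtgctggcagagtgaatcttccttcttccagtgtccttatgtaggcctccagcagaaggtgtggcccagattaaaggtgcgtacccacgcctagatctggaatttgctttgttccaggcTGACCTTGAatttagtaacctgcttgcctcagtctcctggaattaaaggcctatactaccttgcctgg
NOD MT2A, nearest Slc7a1, chr5:148176176-148176475: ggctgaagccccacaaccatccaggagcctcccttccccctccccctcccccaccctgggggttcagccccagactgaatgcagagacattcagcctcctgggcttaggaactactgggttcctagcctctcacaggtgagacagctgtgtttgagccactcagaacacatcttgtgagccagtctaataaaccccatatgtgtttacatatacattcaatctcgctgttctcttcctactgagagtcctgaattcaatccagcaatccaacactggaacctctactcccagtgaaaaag
NOD ORR1C2, nearest Prrt3, chr6:113502806-113503105: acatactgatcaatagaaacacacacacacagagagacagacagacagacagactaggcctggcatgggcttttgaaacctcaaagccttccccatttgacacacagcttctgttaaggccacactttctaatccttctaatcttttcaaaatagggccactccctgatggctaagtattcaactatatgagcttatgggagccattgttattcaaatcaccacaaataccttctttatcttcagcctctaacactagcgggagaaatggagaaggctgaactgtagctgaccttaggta
B6 MTC, nearest Tulp3, chr6:128335075-128335374: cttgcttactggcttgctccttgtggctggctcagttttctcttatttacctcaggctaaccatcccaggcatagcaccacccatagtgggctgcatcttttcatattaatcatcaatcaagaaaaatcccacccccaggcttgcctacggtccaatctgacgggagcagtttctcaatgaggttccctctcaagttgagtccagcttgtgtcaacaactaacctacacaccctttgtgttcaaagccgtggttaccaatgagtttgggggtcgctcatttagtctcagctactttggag
NOD MTA_Mm, nearest Ttll11, chr2:35951060-35951359: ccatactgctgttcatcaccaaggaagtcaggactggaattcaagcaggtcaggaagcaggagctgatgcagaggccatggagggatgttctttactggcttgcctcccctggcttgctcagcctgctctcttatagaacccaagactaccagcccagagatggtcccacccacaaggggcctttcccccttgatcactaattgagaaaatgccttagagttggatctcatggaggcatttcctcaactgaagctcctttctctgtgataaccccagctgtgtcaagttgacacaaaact

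The B6 MT2B2 sequence lies in an intron near Xrn1, which encodes an exoribonuclease, and holds an Esrrb motif on the minus strand. Here and below, genes are named by the nearest start site, and an intron may belong to another gene. The other 4 windows hold none of the motifs. Their GC content was 52.0% in the NOD MT2A, 50.7% in the NOD MTA_Mm, 48.0% in the B6 MTC and 43.0% in the NOD ORR1C2 window.

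ERVL and MaLR repeats made up a like share of both lists. They accounted for 5.07% (4.50 to 5.68) of the B6 list and 5.27% (4.73 to 5.86) of the NOD list. In this annotation a repeat is named only in intronic and intergenic regions, and among these the shares were 5.80% and 6.22%. Of all 603 regions, 53.6% (49.5 to 57.6) were in the NOD list, against 51.8% of all intronic and intergenic regions. Other retroviral classes were tilted further to NOD, at 61.5% (58.6 to 64.4) of 1123 ERVK and 69.2% (63.7 to 74.3) of 308 ERV1 regions. The interval of ERVL and MaLR lies below both of these and includes the background share of 51.8%, which holds repeats as well. Intronic and intergenic regions outside repeats stood at 47.5% (46.2 to 48.8), below the ERVL and MaLR interval. SINE regions stood at 54.9%, L1 at 58.2% and other repeats at 57.4%.

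The families differed in how they were divided between the strains. ORR1, the largest with 245 regions, had 97 in B6 and 148 in NOD, a NOD share of 60.4% (54.0 to 66.6) whose interval lies above the background share. Without chromosomes 1 and 13 it was 57.5% (50.6 to 64.3), and at a score of at least 20 it was 60.8% (49.1 to 71.6). Both of these intervals include the background share, which was taken over all chromosomes and scores. At a score of at least 20 the whole lists held 1706 B6 and 2138 NOD regions. MT had 88 B6 and 82 NOD regions, or 48.2% (40.5 to 56.0) in NOD. The oldest group, MLT1, had 35 and 28, or 44.4% (31.9 to 57.5). The MERVL-related MT2 family was even, with 17 B6 and 18 NOD regions. A remaining group of 90 regions, among them RMER10, RMER15, MLT2 and MT-int repeats, had 43 and 47. Outside ORR1, 48.9% (43.6 to 54.2) of 358 regions were in NOD.

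**Figure D1:**
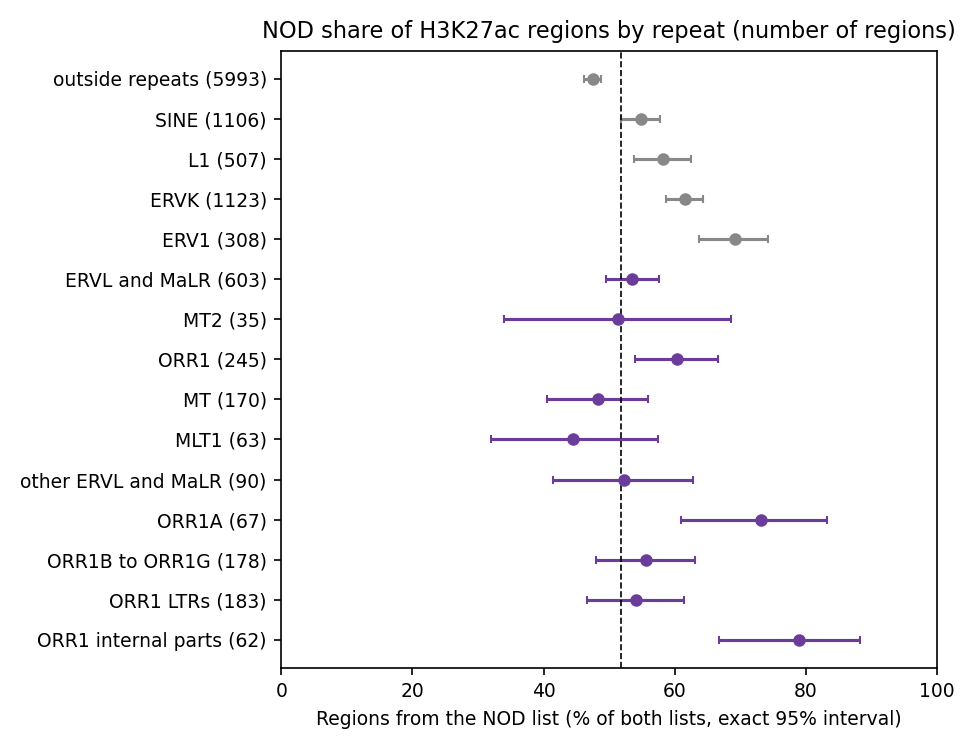
Share of H3K27ac regions that come from the NOD list, in percent of the regions of both lists, for repeat classes (grey) and for ERVL and MaLR groups (purple). Points are shares, bars are exact 95% binomial intervals, the dashed line is the 51.8% of all intronic and intergenic regions, and ORR1A and the ORR1 internal parts stand farthest to the right, at 73.1% and 79.0%.

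Within ORR1, NOD shares were highest in ORR1A and in internal parts, groups that were chosen after their values had been seen. ORR1A had 18 B6 and 49 NOD regions, a NOD share of 73.1% (60.9 to 83.2), while ORR1B to ORR1G together had 79 and 99, or 55.6% (48.0 to 63.0). Among the latter, ORR1D with 65.1% (49.1 to 79.0) and ORR1F with 64.0% (42.5 to 82.0) stood close to ORR1A, on fewer regions. ORR1 internal parts had 13 B6 and 49 NOD regions, or 79.0% (66.8 to 88.3), and ORR1 LTRs had 84 and 99, or 54.1% (46.6 to 61.5). These last intervals do not overlap. ORR1A internal parts alone had 6 B6 and 25 NOD regions and ORR1A LTRs had 12 and 24, or 66.7% (49.0 to 81.4), an interval that includes the background share. ORR1B to ORR1G internal parts had 7 and 24, and their LTRs 72 and 75. The internal parts had more NOD than B6 regions both in ORR1A and in ORR1B to ORR1G. Among LTRs, ORR1D with 14 and 21 and ORR1F with 9 and 15 also had more in NOD. In the other families internal parts were few, with 8 B6 and 10 NOD regions in MT, 3 and 4 in MT2 and 1 and 4 in MLT1. The remaining group, in which 2 B6 regions named MT-int were counted, went the other way, with 8 and 1. All internal parts, ORR1 among them, had 33 B6 and 68 NOD regions, or 67.3% (57.3 to 76.3) in NOD.

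**Figure D2:**
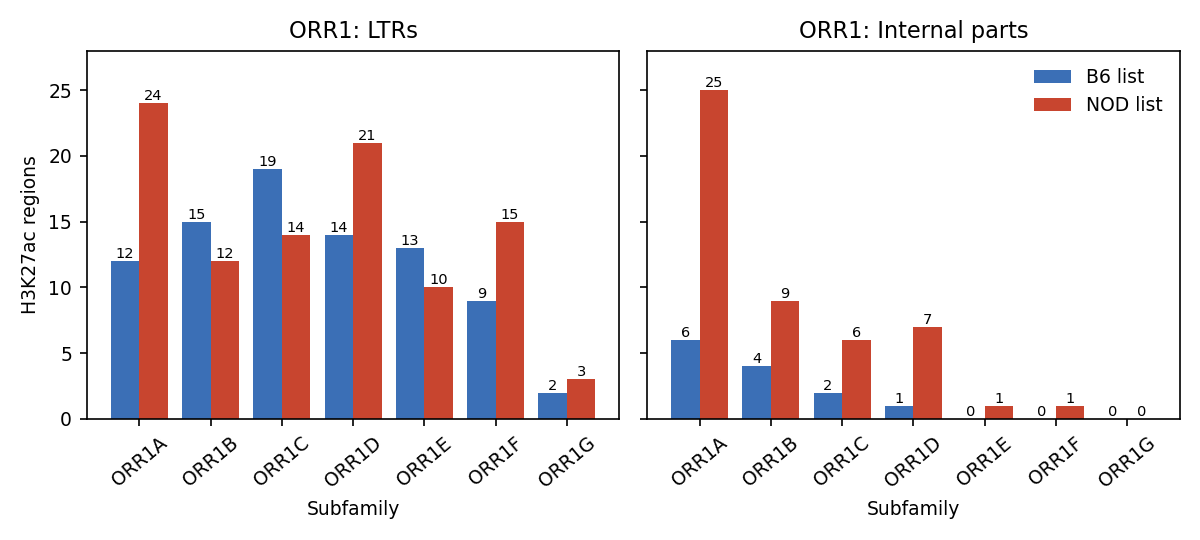
Number of H3K27ac regions in ORR1 LTRs (left) and ORR1 internal parts (right) by subfamily, with B6 in blue and NOD in red and the count above each bar. Internal parts of ORR1A had 6 B6 and 25 NOD regions, and internal parts of ORR1B, ORR1C and ORR1D also had more NOD than B6 regions.

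ORR1A1-int was the clearest single name, with 0 regions in B6 and 9 in NOD. The exact interval of 0 among the 280 B6 regions reaches 1.31%, and 3 counts of the total, the limit used for a count of 0, are 1.07%. The 9 regions lie on several chromosomes and scored from 6.08 to 45.0. The highest was in an intron near Mir1231 at chr1:135446890-135447462. Next came 1 near Hsf2bp, a gene of meiotic recombination, with a score of 41.7, and 1 near Atad2b, a bromodomain gene, with 34.7. Another lies 19.6 kb from Spic, a transcription factor of macrophages, and scored 29.4. ORR1A2-int had 5 B6 and 11 NOD regions, and ORR1A2, its LTR, had 6 and 10.

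In all, 103 repeat names occurred, of which 52 were in both lists, 24 in B6 alone and 27 in NOD alone. MTD was the commonest, with 24 B6 and 20 NOD regions, and MTC had 20 and 13. ORR1C2 had 15 B6 and 8 NOD regions, the reverse of ORR1F with 9 and 15 and of ORR1D2 with 4 and 10. RMER10A had 10 and 13. The LTR of the youngest MERVL elements, MT2_Mm, named no region in either list. Few regions stand behind each name.

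The regions were mostly narrow and of modest score. The deposited score is a difference in signal, own strain less opposite strain, and the files do not give its scale. Its median was 12.4 (11.4 to 13.9) in B6 and 12.7 (11.7 to 14.3) in NOD, with 13.1 and 13.4 for the other intronic and intergenic regions. The median width was 327.5 bp in B6 and 296 bp in NOD. The smallest width each caller gave, 262 bp in B6 and 233 bp in NOD, was that of 137 B6 and 140 NOD regions. Wider regions scored higher, with a rank correlation across regions of 0.815 over 279 in B6 and 0.757 over 322 in NOD, where the points of a list share 1 pair of libraries and the score is not scaled to width as far as the files tell. The highest score was 356.3 in B6 and 411.2 in NOD, and 1 region in each list, an ORR1F in B6 and an MTEa in NOD, scored below 0.

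**Figure D3:**
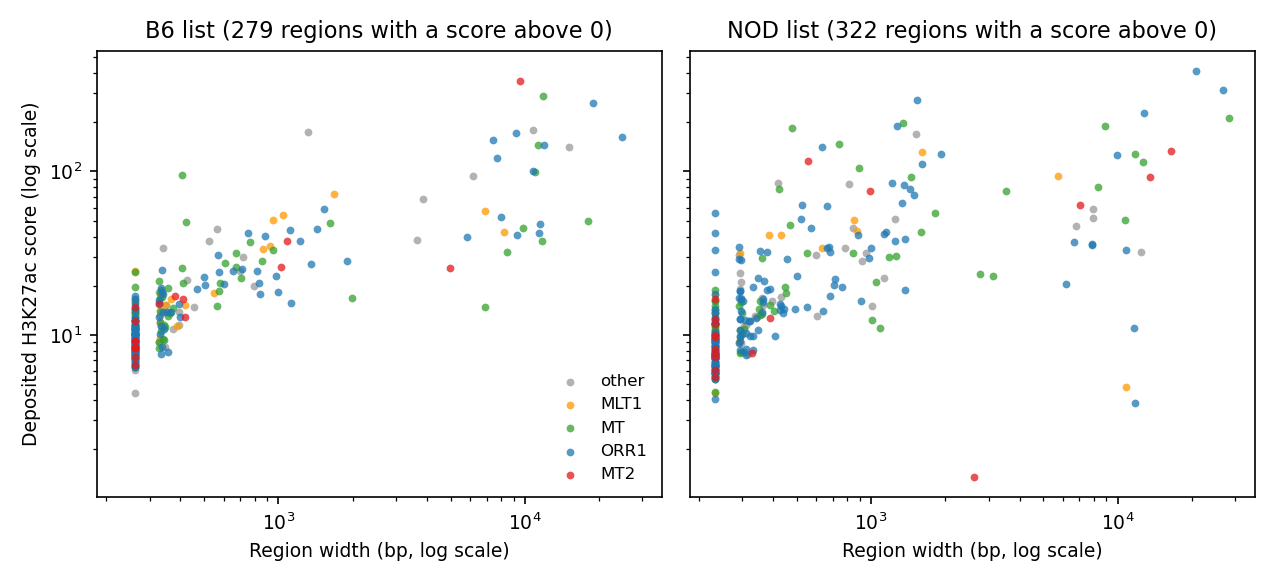
Deposited H3K27ac score against region width in bp, both on log scales, for the 279 B6 and 322 NOD regions with a score above 0, coloured by family. Most points stand at the smallest widths with scores near 10, and the highest scores of 356.3 in B6 and 411.2 in NOD belong to regions of 9.54 and 20.9 kb.

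Among MT2 repeats, 1 B6 region stood far above the rest. It was an MT2A at chr2:150947405-150956949 in an intron 42.6 kb from the start of Gins1, which encodes a subunit of the GINS replication complex. With a score of 356.3 it ranked 10 of 5525 in the whole list. The other MT2 regions of B6 scored from 6.56 to 37.8, the highest of these being the MT2B2 near Xrn1 whose sequence is shown above. In NOD the leading MT2 region was an MT2B1 at chr12:19176541-19193034 with a score of 133.6, 670.3 kb from the nearest start site. The MT2A in an intron near Slc7a1, a transporter of basic amino acids, followed with 116.1 over only 0.552 kb. MERVL_2A-int, an internal part related to MERVL, had 3 B6 and 2 NOD regions. The MERVL internal part itself was found in 0 regions of B6 and 2 of NOD. The higher of these lies at chr7:11166737-11180219, 7.33 kb from the start of Zscan4d, a gene of the 2-cell stage. It scored 92.2 and ranked 522 of 6126. Zscan4 genes are near-identical copies, so reads there are hard to place and the region is uncertain.

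ORR1 regions reached the highest NOD scores. An ORR1F at chr10:8832020-8852903 in an intron near Sash1, a signalling scaffold, scored 411.2 and ranked 41 in its list. An ORR1A4-int at chr13:66414796-66441622 near 2410141K09Rik scored 316.2, and an ORR1C2 at chr6:113502189-113503721 near Prrt3 scored 272.7 within 1.53 kb. In B6, the leading ORR1 region was an ORR1B1 at chr7:68240125-68259067 in an intron near Pgpep1l with 263.6. It was followed by an ORR1B1 near Bcas2, a splicing factor, with 172.0, and an ORR1E near Fkbp5, a co-chaperone of steroid receptors, with 161.9. The widest of these was the last, at 24.8 kb. In regions of this width the repeat at the centre covers only part of the acetylated stretch.

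Among MT repeats, the B6 list was led by an MTC at chr5:8722176-8733997 with a score of 287.6. It lies in an intron near Abcb1a, which encodes the drug efflux pump P-glycoprotein. An MTEb near Rec114, a gene of meiotic recombination, scored 145.6, and an MTE2b near Magi1, a scaffold of cell junctions, scored 99.9. The NOD list was led by an MTC near Pm20d2 at chr4:33180801-33209142 with 211.3. An MTA_Mm in an intron near Ttll11, a tubulin-modifying enzyme, had 198.1, and an MTC near Coa7, a mitochondrial assembly factor, had 189.0. Of the 5 highest B6 scores, 2 belonged to the remaining group, an ERVL-B4-int near the olfactory receptor gene Olfr543 with 180.4 and an RMER15 near Spsb2 with 173.2. The fourth highest NOD score was that of an ORR1C1-int near Clta, the clathrin light chain, with 228.6.

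Super enhancers are stretches of unusually high acetylation. The regions with a deposited slope value of at least 1 were counted as such, and so were the 5 highest of each list, where the column holds the width. This applied to 17 of 280 B6 regions, 6.07% (3.58 to 9.54), against 7.20% of the whole B6 list. In NOD it applied to 26 of 323, 8.05% (5.33 to 11.6), against 8.46% of the whole NOD list. Both shares lie near those of the lists. The slope also passes 1 at the low end of the ranking, where 16 B6 and 27 NOD regions had a score under 5, among them 2 ERVL or MaLR regions in each list. Without these, 15 B6 and 24 NOD regions remained, against 6.91% and 8.02% of the lists. By family, the counts with all slopes were 8 in B6 and 9 in NOD for ORR1, 3 and 9 for MT, 1 and 4 for MT2, 0 and 1 for MLT1, and 5 and 3 for the remaining group.

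H3K4me3 regions enriched in the same strain were set beside the acetylated repeats, counting any overlap of at least 1 bp. The overlap is with the whole H3K27ac region and need not include the repeat at its centre. Tags given here and below are those of the whole H3K4me3 region. In B6, 10 of 280 regions, 3.57% (1.73 to 6.47), overlapped such a region, against 4.65% of the whole B6 list. In NOD, 29 of 323, 8.98% (6.10 to 12.6), did so, against 9.86% of the whole NOD list. The shares of these repeats were near those of the lists. The NOD H3K4me3 list was the longer, with 12077 regions against 7587 in B6, and its library held 22750449 tags against 14791364, so the difference between strains cannot be told apart from depth. By family, ORR1 gave 5 of the B6 and 15 of the NOD overlaps, MT gave 4 and 7, and MT2 gave 0 and 2.

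In both strains the median tag number of these H3K4me3 regions was above that of their list, though some lay below it, and the difference was not tested. H3K4me3 regions that overlap other H3K27ac regions were not set beside them. The medians therefore do not compare ERVL and MaLR regions with other H3K27ac regions. The 29 NOD regions covered 34 H3K4me3 regions with a median of 57.5 NOD tags, where the median of the whole NOD H3K4me3 list was 30. Of these, 8 had no B6 tag, and the folds of the other 26 ran from 4.59 to 74.8 after scaling to library size, which the 4-fold requirement of the peak call bounds from below. The 10 in B6 had a median of 25.5 B6 tags against 20 for the whole list, and 4 had no NOD tag.

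The strongest of these H3K4me3 regions, chr5:100210831-100214016, had 376 tags in NOD and 10 in B6. After scaling to library size this was 24.4 times as many (13.1 to 51.4). It overlapped the H3K27ac region of an MTE-int near 2310034O05Rik, chr5:100213271-100214009. The H3K4me3 region that met the ORR1C1-int region near Clta had 145 NOD and 8 B6 tags. That of the MTA_Mm region near Ttll11 had 130 and 4. These H3K4me3 regions were high in NOD and low but present in B6. Those near Clta and Ttll11 did not reach the centre of the H3K27ac region, where the repeat was named. The ORR1A4-int region near 2410141K09Rik covered 4 H3K4me3 regions, of which 2 had no B6 tag. The strongest of these had 122 NOD and 8 B6 tags and lay at the end of the H3K27ac region, away from its centre. The H3K4me3 region over an RMER15 near Tpd52, chr3:9018722-9019830, had 115 NOD tags and a single B6 tag. Its fold was 74.8 with a counting interval from 13.2 to 2979. The interval is wide because it rests on that 1 tag.

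In B6 the strongest H3K4me3 region, chr17:29981654-29982535, overlapped the H3K27ac region of an ORR1E near Zfand3. It had 136 tags in B6 and 22 in NOD, or 9.51 times as many (6.03 to 15.7) after the same scaling. The H3K4me3 region that met an MTC region near Pole4, a subunit of DNA polymerase epsilon, had 39 B6 and 7 NOD tags. That of an ORR1F region near Ankrd33 had 31 and 11. That of an ORR1D1 region near Ppp1r14d had 28 B6 tags and that of an MLT2B3 region near Dlgap3 had 26, with no NOD tag in either. Against a floor of 3 tags, these were 14.4-fold and 13.3-fold higher in B6. The lower limits of their counting intervals were 10.9 and 10.1. The H3K4me3 regions near Pole4, Ankrd33 and Ppp1r14d did not reach the centre of the H3K27ac region, where the repeat was named.

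**Figure D4:**
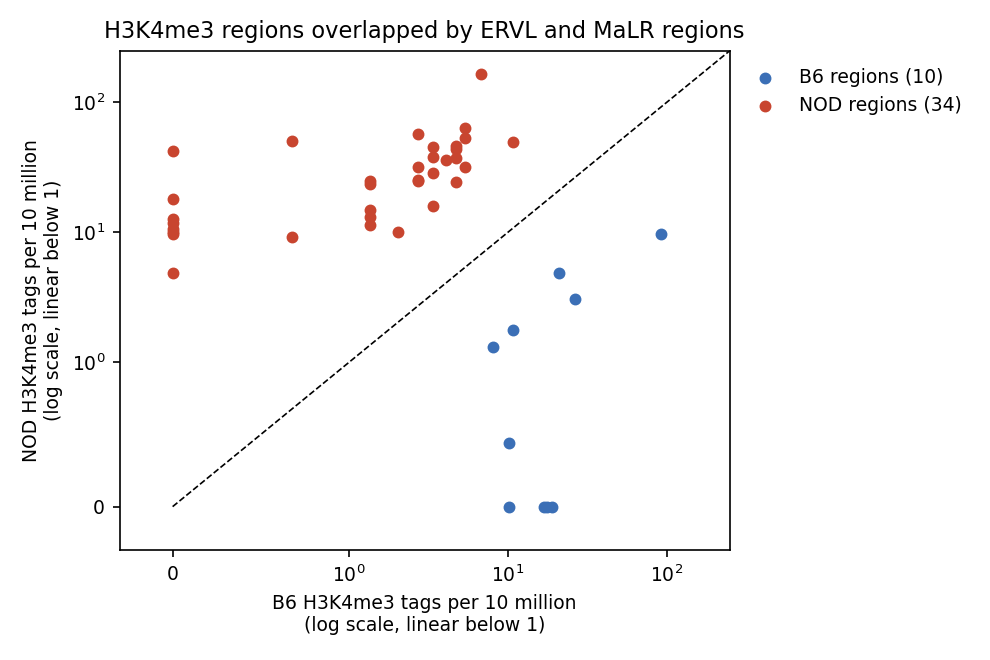
H3K4me3 tags per 10000000 tags of each library in the 10 B6 and 34 NOD H3K4me3 regions that overlap an ERVL or MaLR H3K27ac region of the same strain, on log axes that are linear below 1. Each point is 1 H3K4me3 region, the dashed line marks equal levels, and each colour stays on its own side of the line, which follows from how the H3K4me3 lists were called.

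Overlaps with H3K4me3 of the other strain were rare. They were found for 2 of 280 B6 regions against 1.92% of the whole B6 list, and for 1 of 323 NOD regions against 0.702% of the whole NOD list. The B6 cases were an RMER10A near Rapgef5, with 0 B6 and 15 NOD H3K4me3 tags, and an RMER15 near Map4, with 0 and 20. The NOD case was an ORR1A4 near 1700019B03Rik on chromosome 8, with a low H3K27ac score of 3.86, that covered 2 H3K4me3 regions of 22 and 13 B6 tags with 5 and 1 NOD tags.

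Of the 280 B6 and 323 NOD regions, 0 lay within 1 kb of the start site that the deposited annotation names, with exact intervals up to 1.31% and 1.14%. This was so for 3.47% of the other intronic and intergenic regions in B6 and 6.63% in NOD. ERVK, ERV1 and L1 regions stood from 0% to 1.36% across both lists. The deposited annotation gives a region either as a promoter or as a repeat, so promoters are missing from both of these groups. The median distance was 23.9 kb (20.5 to 29.9) in B6 and 22.8 kb (18.8 to 27.2) in NOD, with 25.4 and 23.4 kb for other intronic and intergenic regions. In B6, 140 of 280 regions were intronic, against 55.3% of the other intronic and intergenic regions, a share that the B6 interval includes. In NOD, 133 of 323 were intronic, or 41.2% (35.8 to 46.8), an interval that lies below the 49.1% of the other regions. The other regions were thus also less often intronic in NOD than in B6. By repeat class in NOD, 21.6% of ERVK, 17.4% of ERV1 and 34.2% of L1 regions were intronic, all lower than ERVL and MaLR. SINE regions at 53.0% and other repeats at 45.5% were higher. The GENCODE annotation, which holds more transcripts, placed a start within 1 kb of the centre of 12 B6 regions, against 17.2% of the whole B6 list, and of 16 NOD regions, against 22.9% of the whole NOD list. The lists also contain annotated promoters. Among the other intronic and intergenic regions the shares were 11.3% in B6 and 13.6% in NOD, above the 4.29% (2.23 to 7.37) and 4.95% (2.86 to 7.92) of the ERVL and MaLR regions. ERVK, ERV1 and L1 were low as well, with 3.47% in B6 and 3.91% in NOD for ERVK, 2.11% and 3.76% for ERV1, and 4.72% and 4.07% for L1. SINE regions stood higher at 8.22% and 7.91%, and other repeats at 9.09% and 9.91%. Of the starts near ERVL and MaLR regions, 6 B6 and 7 NOD belonged to protein-coding genes. The closest were 17 bp from an MTB_Mm centre at Cct7, a chaperonin subunit, 52 bp from an ORR1D2 centre at Pard3, a cell polarity gene, both in NOD, and 74 bp from an MTC centre at Aanat, an enzyme of melatonin synthesis, in B6. The NOD region at Pard3 also overlapped H3K4me3, with 57 NOD and 4 B6 tags. A start of the centrosomal gene Ninl lay 615 bp from the centre of the leading B6 MT2A region.

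The 6 motifs were searched on both strands in the 300 bp around each centre, which reaches past the ends of the narrowest regions. They were the octamer ATGCAAAT, bound by Pou5f1, TCAAGGTCA of Esrrb, TGATTNAAT as the core of the site of Dux, the activator of MERVL at the 2-cell stage, CATTCCA of Tead factors, TTCCNGGAA of Stat factors and AGATAAG of Gata factors. The motifs do not contain each other. A match is a string of letters and not a bound site.

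Matches were few in ERVL and MaLR regions and for most motifs near the share in the other intronic and intergenic regions of the same list. The Dux core was found in 0 of 280 B6 windows, with an exact interval up to 1.31% and a limit of 3 counts at 1.07%, against 0.923% of the other windows. In NOD it was found in 10 of 323, 3.10% (1.49 to 5.62), against 1.66%. Of these 10, 6 were MT, 2 ORR1 and 2 MLT1 regions, and none was MT2. The Esrrb motif was found in 9 B6 windows, 3.21% (1.48 to 6.01), against 1.52%, and in 5 NOD windows, 1.55% against 1.42%. The octamer was found in 5 B6 windows, 1.79% against 2.70%, and in 2 NOD windows, 0.619% (0.0751 to 2.22) against 2.77%. Only for the octamer in NOD did the interval of these repeats lie below the share of the other windows, and in no case did it lie above.

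The Tead motif had the highest shares, 6.43% of B6 and 5.88% of NOD windows, against 5.49% and 5.33%. The Stat motif stood at 1.07% and 1.24%, against 1.27% and 1.01%, and the Gata motif at 3.21% and 3.10%, against 4.62% and 3.78%. The intervals of these 3 motifs include the share of the other windows in both lists.

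**Figure D5:**
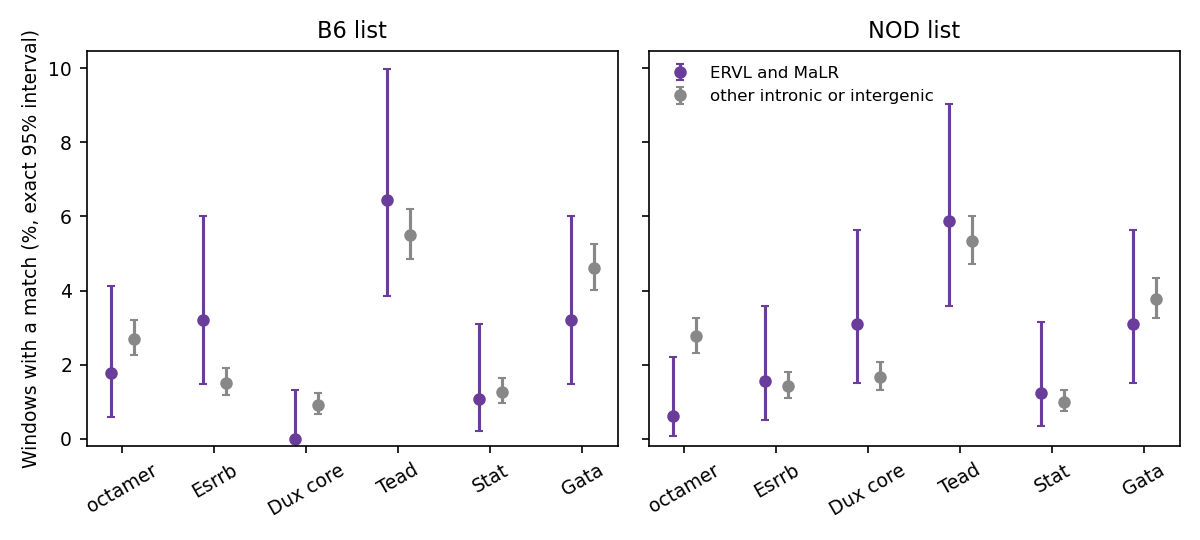
Share of 300 bp windows that hold each of the 6 motifs, in percent, for ERVL and MaLR regions (purple) and other intronic or intergenic regions (grey) of the B6 list (left) and NOD list (right). Bars are exact 95% binomial intervals, and the purple bars are wide, with the octamer in NOD at 0.619% against 2.77%.

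A few of the Dux core and Esrrb matches are shown with 8 bases on each side, with the motif in capitals and read along the strand of the match, to let copies be compared. The Dux core matches shown come from MTE2a and ORR1G repeats, and the Esrrb matches from ORR1A internal parts, and they were chosen after the matches had been seen.

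NOD MTE2a, Zranb3: tattgctcTGATTTAATaaaagagg
NOD MTE2a, Mthfd2: tgccaagtTGATTCAATctagaatc
NOD ORR1G, Fyttd1: ttgagaagTGATTGAATcatgaagg
NOD ORR1A1-int, Atad2b: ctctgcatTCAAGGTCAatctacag
NOD ORR1A0-int, E330021D16Rik: ctctgcatTCAAGGTCAatctccag
B6 ORR1A2-int, 1700031P21Rik: ctctgagtTCAAGGTCAgcatgggg

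The Atad2b and E330021D16Rik stretches were identical at 24 of 25 bases, 9 of which are the motif itself, and the B6 stretch at 1700031P21Rik was identical to the Atad2b stretch at 17. The Mthfd2 region, an MTE2a with a score of 47.0 near a gene of mitochondrial folate metabolism, also overlapped H3K4me3 of NOD, with 85 NOD and 7 B6 tags. Base composition was ordinary, with a median GC content of 47.0% in B6 and 46.0% in NOD windows, against 46.7% and 45.3% in the other intronic and intergenic windows. CpG sites were few, with a median of 2 per window in both lists against 3. ERVK and L1 regions also had a median of 2 in both lists, while SINE regions had 3 and ERV1 regions 3 in B6 and 4 in NOD.

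The regions nearest to genes of early embryos and to genes of the study were counted, beside the 5.07% of the B6 list and 5.27% of the NOD list that were ERVL or MaLR regions. With so few regions, counts of 0 or 1 cannot be told apart from these shares. Of 18 genes of naive pluripotency, among them Pou5f1, Sox2 and Nanog, 14 had a strain-enriched H3K27ac region nearest to them, 31 regions in all, and none of these was an ERVL or MaLR region. A single B6 MTC lay within 100 kb of a gene of this list, 80.0 kb from Lin28a, a regulator of let-7, with a score of 13.7. Of 21 genes of the 2-cell stage, 7 had a region nearest to them, 2 regions in B6 and 6 in NOD, and 1 of these was the MERVL-int region near Zscan4d. Among 20 silencers and activators of ERVL, such as Trim28, Setdb1 and Kdm1a, 13 had a region nearest to them, 21 in all, and no ERVL or MaLR region. The 14 genes that the study discussed, such as Crygd, Aim2 and H2-K1, had 29, again with none.

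The regions were spread over 571 nearest genes, of which 27 had several regions. Zfp369, a zinc-finger gene on chromosome 13, had 4, all in NOD, of which 3 were ORR1A4 LTRs or internal parts and 1 an MT2B1. Magi1 had 3, all in B6. Tfap2c, a transcription factor of trophoblast and germ cells, had 2 B6 regions, an MT-int with a score of 94.2 and an RMER10A with 8.14, and 1 NOD region, an MTEa with 10.2 whose window holds a Dux core. On chromosome 13 between 62 and 67.5 Mb, an area rich in zinc-finger genes, there were 3 B6 and 7 NOD regions, of which 4 of the latter were ORR1. Of all H3K27ac regions there, 29 were B6 and 58 NOD, so the 70.0% of the repeats in NOD lay near the 66.7% of all regions.

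Across chromosomes the strain balance of the repeats followed that of the whole lists in part. Chromosome 6 had 32 B6 and 17 NOD regions, a NOD share of 34.7% (21.7 to 49.6) beside 35.1% for all its regions, and chromosome 8 had 15 and 25, or 62.5% beside 63.6%. Chromosome 1 had 13 and 31, or 70.5% (54.8 to 83.2) beside 55.2%, and chromosome 18 had 7 and 17, or 70.8% (48.9 to 87.4) beside 56.8%. Both intervals include the share of all regions of the chromosome. Within 20 kb, 11.1% of B6 regions had another B6 region and 13.2% a NOD region, against 9.49% and 16.5% of other intronic and intergenic B6 regions. For NOD regions, 13.6% had another NOD region and 13.9% a B6 region, against 10.8% and 15.1%. All 4 intervals of the ERVL and MaLR regions include the share of the other regions.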

How the data were processed

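Single-end 50 bp ChIP-Seq libraries were mapped and analysed by the authors with bowtie2 (mm10) and HOMER, per the methods, while the submitters' processing notes name mm9, STAR 2.2.0c and CASAVA 1.8.2. The deposited distances to start sites matched GRCm38.p6 RefSeq within 10 bp for 10338 of 11573 regions, and coordinates were taken as mm10. The H3K27ac lists were deposited with a score and a slope score per region, from the HOMER super enhancer pipeline with the other strain as background. They hold no counts, so the H3K27ac depth is unknown. The H3K4me3 lists were deposited with tag counts, a normalised signal and a fold ratio over the other strain. NOD tags are scaled to the B6 library in the NOD list and were turned back into whole tags, to within 0.0769 of a whole number. The handling of reads that match several repeat copies is not given in the sources used here. NOD reads were mapped to a genome of the B6 strain. The effect of either on the values was not tested.

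Shares have exact Clopper-Pearson intervals, medians have order-statistic intervals, and folds have conditional binomial intervals after scaling to the library totals. With 1 library per strain and mark, no p-value was computed. The regions named in the text were the 3 highest scores per strain in MT2, ORR1 and MT, the 5 highest scores per list, and the 5 with the most same-strain H3K4me3 tags. Other regions named were chosen after their values were seen. Members and lists were chosen with earlier results of these data known. The window of the B6 ORR1 family is not reported here. Sequence came from the NCBI GRCm38.p6 genome, and transcript starts from GENCODE vM21. Deposited gene names were kept, and 1 of them among these regions is a name turned into a date. Interval, overlap and motif functions were tested on simulated data. Python 3.11.15, numpy 2.4.6, pandas 2.3.3, scipy 1.17.1 and matplotlib 3.10.9 were used.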

Additional observations from a re-analysis of the deposited data

How the results depend on the processing

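The NOD shares of all regions, of the families, of ORR1A and of the ORR1 internal parts stayed within the counting interval of the reported value under every setting run for them, but these intervals are wide and the side of 50% turned for some families. MT went from 48.2% to 52.2% at a score of at least 20. MT2 went from 51.4% to 48.4% with widths under 5 kb and to 48.3% without chromosome 13, also without chromosomes 1 and 13. MLT1 went from 44.4% to 50.0% at a score of at least 20, and the remaining group from 52.2% to 50.0% without chromosomes 1 and 13. ORR1 ran from 57.5% to 62.0%, ORR1A from 68.6% to 80.8% and the ORR1 internal parts from 75.5% to 87.0%. The whole lists held 1706 B6 and 2138 NOD regions at a score of at least 20, against 5525 and 6126 in all. Over all results, 128 of the recomputed values stayed within the interval of the reported value and 48 left it. Regions under 1 kb, the leaving out of chromosome 13 or of chromosomes 1 and 13, intronic and intergenic regions only, and the slope value with a score of at least 5 were chosen after seeing the data. The share of members in the list was 1.09% of B6 and 1.11% of NOD with ERVL only, 4.06% and 4.26% with MaLR only, and 5.80% and 6.22% among intronic and intergenic regions only. With a score of at least 20, the super enhancer share was 19.5% in B6 and 23.5% in NOD, the same-strain H3K4me3 overlap 10.4% and 21.6%, the median score 37.8 and 43.1 and the median width 1047 and 992 bp, and no NOD region overlapped H3K4me3 of the other strain (0%). With widths under 5 kb, the super enhancer share was 1.19% in B6 and 5.07% in NOD, and under 1 kb it was 0.847% and 2.65%. The same-strain overlap was 1.72% for ERVL only in B6, and in NOD 13.6% within 1 kb of the H3K4me3 region and 5.68% for regions under 1 kb. The other-strain overlap in B6 was 3.45% for ERVL only and 0% for MaLR only. In NOD it rested on 1 region and was 0% under 5 kb, under 1 kb, without chromosomes 6, 8 and X, and for ERVL only. Start sites within 5 kb were found for 7.50% of B6 and 12.4% of NOD regions. Motif shares grew in whole regions, in B6 to 6.79% for the octamer, 6.43% for Esrrb, 2.86% for the Dux core, 16.8% for Tead, 3.21% for Stat and 11.8% for Gata, and in NOD to 5.57%, 4.02%, 6.19%, 14.9%, 3.72% and 9.91%. In 100 bp windows they were 0.714% for Esrrb, 1.79% for Tead and 1.43% for Gata in B6, and 1.24% for the Dux core, 1.55% for Tead and 0.929% for Gata in NOD. Longer windows hold more letters to match. For the super enhancer, H3K4me3, start site and motif shares, values of the whole lists under these settings are not given. These shares therefore do not compare ERVL and MaLR regions with other regions. No paired analysis was possible because each strain and mark has 1 library.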
